A study of Rattus norvegicus with 6 samples.

Results

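The genes described here belong to the cellular response to low oxygen: P4ha1, Hif1a, Hif3a, Egln1, Egln3, Vegfa, Pdk1, Ldha, Slc2a1 and Bnip3. Members were matched by the gene symbol in the files, which found 9 of the 10 listed genes among 25629 genes; Ldha, which codes for a lactate dehydrogenase subunit, is not analysed here. P4ha1 was chosen by its lower level after naloxone in earlier results from the same 6 libraries, so its difference between saline and naloxone is given below as a description with no test. The 8 other measured members were taken from the pathway, and the question was whether the lower P4ha1 came with changes in them.

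Cells sense oxygen through the hypoxia-inducible factors, transcription factors made of an oxygen-sensitive alpha subunit (Hif1a, Epas1 or Hif3a) and a stable partner (Arnt). With oxygen present, the EGLN prolyl hydroxylases mark the alpha subunit for destruction through the VHL ubiquitin ligase, so the pathway is switched mainly at the protein level; with little oxygen the factors accumulate and raise the transcription of genes for glucose uptake, glycolysis, blood vessel growth and the hydroxylases themselves. Opioids slow breathing, and naloxone, an opioid receptor antagonist, reverses this. Breathing and blood oxygen are not among the values analysed here.

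Nuclei came from punches, 2 mm deep, of the nucleus accumbens, a part of the ventral striatum, of Sprague-Dawley rats aged 90 to 120 days. Every rat of both groups had self-administered heroin, first for 7 days at 1 response per dose and then for 4 days at 3 responses, with a progressive ratio test on day 12 and sessions at 3 responses on days 13 and 14. The rats then received saline or naloxone, at a dose not given in the sources used here, and were killed 1 h later. The 12 rats (6 male, 6 female) gave 6 libraries that each pool tissue of both sexes: saline replicates 1, 2 and 3 and naloxone replicates 4, 5 and 6. Rats with no heroin history were not analysed here. Which rats went into which library is not given, so p-values measure the spread between these libraries.

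The libraries held 55739350 to 76272798 counted RNA molecules (UMIs, the tags that keep copies of a molecule from being counted again). After filters on nuclei and removal of called doublets, 58960 of 64260 barcodes were used, 7647 to 13676 per library; the labels speak of 44592 nuclei. Any 2 libraries shared 19 to 45 barcodes. The median mitochondrial share per nucleus was 0.152% to 0.340% in 5 libraries and 0.556% in naloxone replicate 5, which stands apart in this measure. Clusters named from marker genes gave 11 classes with enough nuclei in every library for a test: Drd1-like, Drd2-like and Grm8/Chst9-like spiny neurons (8425, 5278 and 5504 nuclei), cholinergic-like, somatostatin-like and other GABAergic-like interneurons (285, 477 and 893), and, outside neurons, astrocyte-like nuclei (4585), nuclei like oligodendrocytes (11672) and their precursors (2210), microglia-like (1538) and endothelial-like nuclei (412). Unnamed clusters held 11471 nuclei and clusters set aside as mixed 5718. Of the mixed nuclei, 393 were in a cluster with markers of another class. The others were in clusters where over 20% of nuclei held both Xist and Y-linked UMIs, the RNA of both sexes. The spiny neurons that define the tissue were present, and only 38 nuclei were glutamatergic-like.

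P4ha1 codes for the catalytic alpha subunit of collagen prolyl 4-hydroxylase, an oxygen-using enzyme of the endoplasmic reticulum that hydroxylates collagen chains, and is a known target of the hypoxia-inducible factors. Its promoter is shown beside that of Pdk1, another target that did not pass the test anywhere, because both carry the short core that these factors recognise. The windows run from 250 bases before to 50 bases after the start site, 5′ to 3′ on the gene's strand, from RefSeq on build GRCr8; the authors' own files were made on another build, so no position in them is implied. P4ha1 is at chr20:27844796-27845095 (plus strand) and Pdk1 at chr3:77113264-77113563 (plus strand). Capitals mark the hypoxia response core, searched as ACGTG or GCGTG on both strands.
P4ha1: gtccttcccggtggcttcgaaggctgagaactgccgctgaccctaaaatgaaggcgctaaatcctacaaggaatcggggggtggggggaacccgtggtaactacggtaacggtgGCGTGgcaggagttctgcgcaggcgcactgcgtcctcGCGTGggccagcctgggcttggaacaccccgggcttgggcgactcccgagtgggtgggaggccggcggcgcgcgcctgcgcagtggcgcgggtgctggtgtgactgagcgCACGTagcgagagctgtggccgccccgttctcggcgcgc
Pdk1: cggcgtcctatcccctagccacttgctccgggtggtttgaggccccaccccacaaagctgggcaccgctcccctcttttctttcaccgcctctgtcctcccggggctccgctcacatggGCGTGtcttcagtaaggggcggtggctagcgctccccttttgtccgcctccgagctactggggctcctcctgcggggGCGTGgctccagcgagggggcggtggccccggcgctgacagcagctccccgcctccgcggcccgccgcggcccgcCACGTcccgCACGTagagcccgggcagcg
The P4ha1 window held 3 cores, beginning at bases 115, 152 and 262 of its 300, and the Pdk1 window held 4. The core is common: 41.6% of 33469 promoter windows of this length held at least 1. Windows were found for all 10 listed genes (12 windows, since Hif3a and Vegfa have 2 each), and 8 of the 12 held a core.

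P4ha1 was lower after naloxone in the sum over all nuclei. In CPM, the UMIs of a gene per 1000000 UMIs of the sum, it stood at 136, 129 and 138 in saline replicates 1, 2 and 3 and at 95.9, 86.1 and 97.0 in naloxone replicates 4, 5 and 6, from 4817 to 9042 UMIs per library. The lowest saline library was above the highest naloxone library, as was the case for 10.0% of the 17342 genes tested over all nuclei. The group means were 134 ± 4.73 and 93.0 ± 6.01 CPM (SD, n = 3 libraries each), a log2 change of -0.54 with a standard error (SE) of 0.07. Here and below, the SE was derived as the size of the log2 change divided by the square root of edgeR's F statistic. A sum over all nuclei cannot tell a change within nuclei from a change in the mix of classes, so each class was summed on its own.

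P4ha1 had the lower mean after naloxone in all 11 classes, with percent changes from -18.5% in Drd1-like spiny neurons to -54.7% in oligodendrocyte-like nuclei. In oligodendrocyte-like nuclei the saline libraries stood at 337, 225 and 271 CPM and the naloxone libraries at 137, 105 and 137 CPM, a log2 change of -1.14 (SE 0.16). Microglia-like nuclei, the resident immune cells of the brain, held 725, 751 and 761 CPM in the saline libraries and 450, 391 and 517 CPM in the naloxone libraries, a log2 change of -0.71 (SE 0.14), or -0.46 with nuclei gated by markers (assigned one by one by marker genes in place of clusters). In astrocyte-like nuclei the values were 286, 250 and 285 CPM against 198, 148 and 166 CPM, a log2 change of -0.64 (SE 0.12). The groups did not overlap in these 3 glial classes. Naloxone replicate 5 had the lowest value of the 6 libraries in each of them. Markers of other types also differed in microglia-like nuclei: oligodendrocyte markers (8 of 8 measured, none at 0) summed to 1612 to 1727 CPM after saline and 2056 to 2783 after naloxone, precursor markers (7 of 7, none at 0) to 154 to 167 and 210 to 290, and somatostatin interneuron markers (5 of 5, none at 0 in all libraries) to 0 to 30.8 and 37.3 to 51.8. Their part in the P4ha1 difference was not tested.

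Values for the neurons follow. The group means in Drd1-like spiny neurons were 98.6 ± 1.25 and 80.3 ± 2.41 CPM (log2 change -0.30, SE 0.07; -0.14 with nuclei gated by markers). Drd2-like spiny neurons were close to this, at 98.7 ± 3.53 and 78.4 ± 4.12 CPM (log2 change -0.31, SE 0.08), and Grm8/Chst9-like spiny neurons went from 132 ± 3.54 to 100 ± 8.54 CPM (log2 change -0.40, SE 0.08). Somatostatin-like and other GABAergic-like interneurons had log2 changes of -0.62 (SE 0.18) and -0.67 (SE 0.14), and oligodendrocyte precursor-like nuclei of -0.46 (SE 0.13). The groups were separate in all 6 of these classes. They overlapped in cholinergic-like interneurons (55.4 to 79.6 CPM after naloxone, 68.8 to 105 after saline, log2 change -0.38, SE 0.21) and in endothelial-like nuclei (131 to 200 against 179 to 333, log2 change -0.56, SE 0.30), where the libraries held only 37 to 63 and 21 to 51 P4ha1 UMIs. The cholinergic value was -0.25 without saline replicate 2 and without naloxone replicate 5, and the endothelial value -0.30 without saline replicate 3. So 9 of 11 classes had every naloxone library below every saline library. The same held for 10.4%, 11.9% and 9.65% of all genes in the Drd1-like, Drd2-like and Grm8/Chst9-like classes, for 5.71%, 6.76% and 7.23% in the cholinergic-like, somatostatin-like and other GABAergic-like classes, and for 11.4% in astrocyte-like, 9.71% in oligodendrocyte-like, 7.61% in precursor-like and 7.39% in microglia-like nuclei, with 4.79% for the endothelial-like class. The classes of one library share its rats and preparation, so they are not independent repeats.

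**Figure D1:**
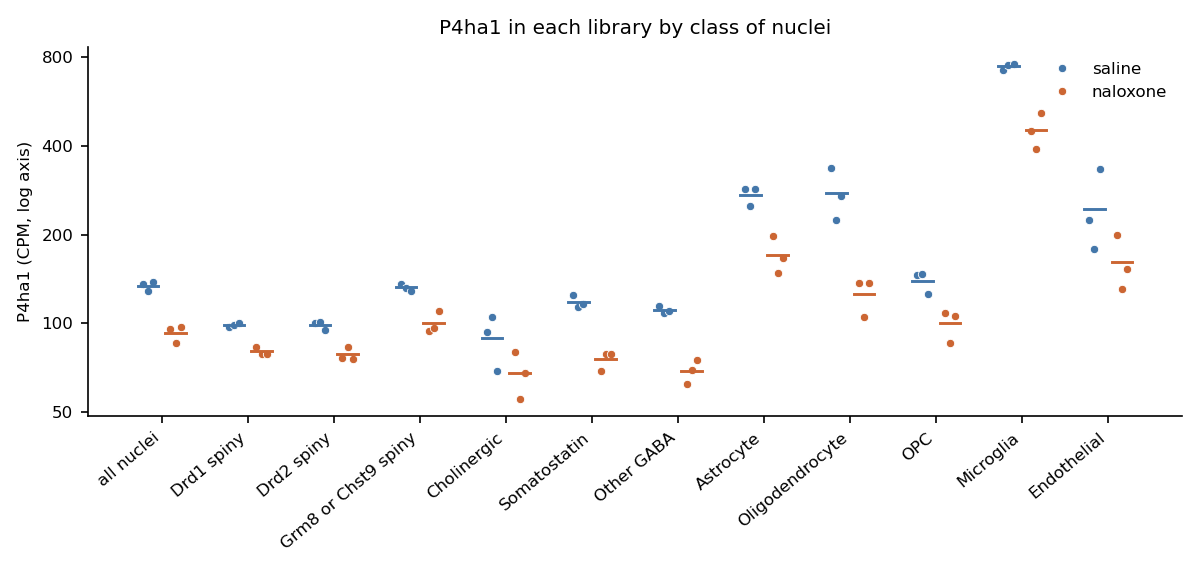
P4ha1 in CPM (log axis) in the sum over all nuclei and in the 11 classes, 1 point per library with the mean of each group as a line (OPC, oligodendrocyte precursors). The 3 naloxone libraries lie below the 3 saline libraries everywhere except in the cholinergic and endothelial classes, where the groups overlap.

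Since each library pools both sexes, nuclei were also split by Xist and Y-linked RNA. P4ha1 in male nuclei stood at 113, 124 and 119 CPM in the saline libraries and at 99.2, 78.2 and 80.4 CPM in the naloxone libraries. Female nuclei held 144, 121 and 144 CPM after saline and 85.4, 87.3 and 109 CPM after naloxone. The groups were separate in both sexes.

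The alpha subunits of the factors themselves came first among the other members. Hif1a, the main oxygen-labile subunit, stood at 72.6, 69.6 and 73.5 CPM in the saline libraries and at 70.2, 71.8 and 68.6 CPM in the naloxone libraries over all nuclei. The groups overlapped, and the log2 change was -0.04 (SE 0.05, edgeR adjusted p = 0.740). Within the classes its log2 change lay between -0.11 in oligodendrocyte-like nuclei and 0.42 in other GABAergic-like interneurons, and it passed the test in none of the 11 (0 by DESeq2). In other GABAergic-like interneurons the libraries stood at 45.1, 64.0 and 54.2 CPM after saline and 76.0, 72.6 and 70.5 CPM after naloxone, without overlap and without passing the test (adjusted p = 0.494).

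Hif3a, an alpha subunit with splice forms known to restrain the others and itself a target of the factors, went the other way from P4ha1. In astrocyte-like nuclei it rose from 39.1, 68.2 and 66.1 CPM in the saline libraries to 107, 199 and 100 CPM in the naloxone libraries, from 60 to 359 UMIs. The groups did not overlap, and naloxone replicate 5 was far above the other two. The means were 57.8 ± 16.3 and 135 ± 55.1 CPM, a log2 change of 1.21 (SE 0.23, edgeR adjusted p = 0.0243). The log2 change was 0.85 without naloxone replicate 5 (adjusted p = 0.0192). The call was lost with DESeq2 (adjusted p = 0.0792), with nuclei gated by markers (0.0608) and without any 1 of the saline replicates 1, 2 or 3 (0.0846, 0.0638 and 0.0737). Over all alternatives the adjusted p was at most 0.0846. Of the marker lists of other types, 3 were also higher in the naloxone libraries of astrocyte-like nuclei: microglia markers (8 of 8 measured, summed 58.6 to 72.9 CPM after saline and 74.6 to 87.5 after naloxone, none at 0), somatostatin interneuron markers (5 of 5, 10.4 to 16.9 and 17.7 to 19.6, none at 0) and glutamatergic markers (6 of 6, 2.60 to 4.53 and 5.54 to 9.80, Neurod2 at 0). Their part in the result was not tested.

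Outside astrocyte-like nuclei Hif3a was scarce. Over all nuclei it stood at 2.66, 4.37 and 3.55 CPM after saline and 5.24, 10.2 and 5.76 CPM after naloxone, without overlap, as for 11.4% of all genes in that direction. The log2 change of 0.98 (SE 0.27) did not pass edgeR's test (adjusted p = 0.201). In oligodendrocyte-like nuclei, where Hif3a was below the filter on low counts, it gave 4, 3 and 1 UMIs after saline and 9, 26 and 19 after naloxone. Hif3a in oligodendrocyte-like nuclei passed with no filter on low counts, and also without naloxone replicate 4. In the latter fit it met the filter through the naloxone libraries, where it was high. Neither pass is support for a change there. Microglia-like nuclei gave 1, 1 and 2 UMIs after saline and 4, 5 and 10 after naloxone. RNA set free from other nuclei was not removed, and its part in such low counts was not tested.

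The prolyl hydroxylases that tag the alpha subunits did not pass the test. Egln1, the main one in most cells, stood at 21.5, 23.9 and 23.1 CPM after saline and 26.6, 22.9 and 24.2 CPM after naloxone over all nuclei (log2 change 0.10, SE 0.08, adjusted p = 0.607). In oligodendrocyte-like nuclei, its highest class, the libraries stood at 88.2, 79.9 and 72.4 CPM after saline and 94.3, 101 and 112 CPM after naloxone. The groups were separate there, with a log2 change of 0.36 (SE 0.12) that did not pass the test (adjusted p = 0.250). Egln3, whose RNA rises with hypoxia in many cells, was near the lower limit at 1.09 ± 0.106 and 1.05 ± 0.321 CPM over all nuclei and could be tested in 1 class, oligodendrocyte-like nuclei (7.53 ± 0.721 and 6.44 ± 0.896 CPM, adjusted p = 0.802).

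The downstream targets gave no common direction as a group, though single targets kept 1 sign in most classes. Vegfa, the growth factor for blood vessels, stood at 33.5 ± 0.427 and 33.1 ± 2.71 CPM over all nuclei (log2 change -0.03, SE 0.07, adjusted p = 0.877). In astrocyte-like nuclei, where it was highest, it stood at 251, 224 and 250 CPM after saline and 223, 194 and 218 CPM after naloxone. Those groups are separate by a narrow gap, and the log2 change of -0.15 (SE 0.10) did not pass the test (adjusted p = 0.606). Pdk1, a kinase that turns off pyruvate dehydrogenase, had 10.1 ± 0.297 and 9.15 ± 0.920 CPM over all nuclei (log2 change -0.15, SE 0.11, adjusted p = 0.567). Slc2a1, the glucose transporter of the blood-brain barrier, had 12.3 ± 1.41 and 14.4 ± 3.08 CPM (log2 change 0.22, SE 0.15, adjusted p = 0.528). Bnip3, a mitochondrial protein that promotes the removal of mitochondria, had 19.0 ± 1.87 and 16.6 ± 1.63 CPM (log2 change -0.20, SE 0.10, adjusted p = 0.401). A Bnip3 pseudogene is listed beside it in the files, so its reads could be shared. By class, Bnip3 had a log2 change below 0 in all of its 9 tested classes except other GABAergic-like interneurons (0.14). Pdk1 was below 0 in all of its 7 except that same class (0.06). Slc2a1 was above 0 in all of its 7 except astrocyte-like nuclei (-0.07). Vegfa lay between -0.26 and 0.27 in its 8. None of these pairs passed the test, and the classes of a library are not independent repeats.

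Oligodendrocyte-like nuclei, with the largest P4ha1 difference, had 3 members whose groups were separate, 2 higher and 1 lower. Slc2a1 stood at 27.1, 32.0 and 30.2 CPM after saline and at 40.6, 44.4 and 34.5 CPM after naloxone (log2 change 0.40, SE 0.13, adjusted p = 0.253). Bnip3 stood at 37.9, 29.9 and 36.6 CPM after saline and at 28.3, 27.5 and 27.0 CPM after naloxone (log2 change -0.34, SE 0.15, adjusted p = 0.414). With Egln1 above, none of the 3 passed the test. In the same nuclei precursor markers (7 of 7 measured, none at 0) summed to 93.7 to 103 CPM after saline and 122 to 159 after naloxone, and somatostatin interneuron markers (5 of 5, none at 0) to 17.6 to 19.9 and 30.8 to 36.4; their part was not tested.

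Counted together, 0 of the 8 other members passed edgeR's test over all nuclei, where 0.0404% of all genes passed. An unadjusted p under 0.05 was found for 1, as for 14.1% of all genes, and DESeq2 called 1, in each case Hif3a. Members could be tested in 56 pairs of member and class, and 1 pair passed, Hif3a in astrocyte-like nuclei. An unadjusted p under 0.05 was found for 5 of the 56 pairs, and DESeq2 called 0. The share of all genes at that unadjusted threshold in the classes is given below, with the collagen enzymes. The share of all genes that passed was 0.219% in Drd1-like, 0.684% in Drd2-like and 0.0955% in Grm8/Chst9-like spiny neurons, 0%, 0.0140% and 0.0439% in cholinergic-like, somatostatin-like and other GABAergic-like interneurons, and 0.872%, 0.887%, 0.225%, 0.193% and 0% in astrocyte-like, oligodendrocyte-like, precursor-like, microglia-like and endothelial-like nuclei. Of the 56 pairs, 30 had a lower and 26 a higher value after naloxone. The groups were separate downward in 6 pairs (10.7%) and upward in 6 (10.7%). The downward pairs were Bnip3 in Grm8/Chst9-like, somatostatin-like and oligodendrocyte-like nuclei, Egln1 in Drd2-like, Pdk1 in Grm8/Chst9-like and Vegfa in astrocyte-like nuclei, in classes where 6.76% to 11.9% of all genes were separate in that direction. The upward pairs were Egln1 and Slc2a1 in oligodendrocyte-like nuclei (8.79% of all genes), Hif1a and Hif3a in astrocyte-like nuclei (6.38%), Hif1a in other GABAergic-like (6.42%) and Egln1 in cholinergic-like interneurons (5.14%). A member that missed the threshold is not shown to be unaltered: with 3 libraries a group, the SE of a log2 change ranged from 0.05 (Hif1a) to 0.27 (Hif3a) over all nuclei. In endothelial-like nuclei the fit recovered 0 of 200 genes changed by a log2 of 1 in simulated counts.

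**Figure D2:**
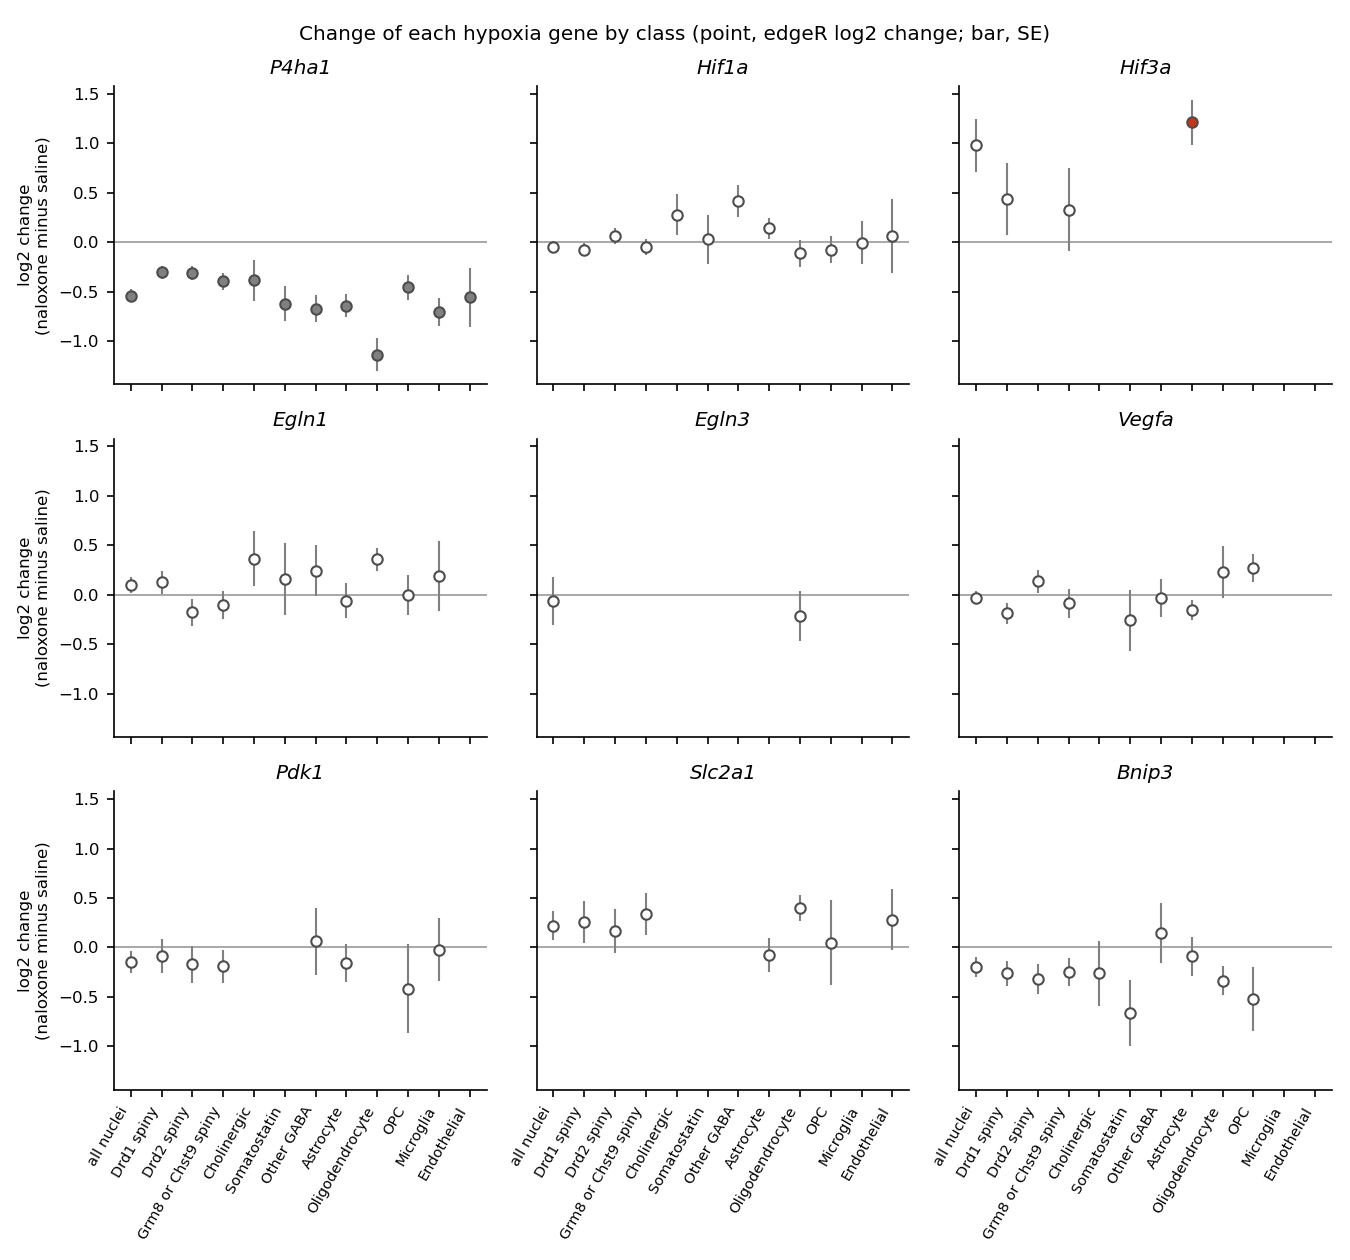
Log2 change from saline to naloxone with its SE for the 9 measured members, over all nuclei and in each class where the gene passed the filter on low counts. Grey points are P4ha1, given as a description; the red point is Hif3a in astrocyte-like nuclei, the 1 call; open points did not pass, and a class with no point was not tested.

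The difference between classes was tested directly, as a class by treatment term with the library as a block, for the 7 other members that passed the filter. None passed at an adjusted p under 0.05, against 1.54% of all genes. An unadjusted p under 0.05 was found for 3 (Hif3a, Egln1 and Vegfa), and for 1339 of all 12804 genes tested. The edgeR adjusted p was 0.324 for Hif3a, 0.359 for Egln1 and 0.423 for Vegfa. So Hif3a passed the test in astrocyte-like nuclei without its change being shown to differ between classes. The sex by treatment term passed for none of the 8 members (0% of all genes). It had 1 unadjusted p under 0.05, that of Egln1 (edgeR adjusted p = 0.798), and 981 of all 16199 genes tested had one. No other tool was run on either term.

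Longer lists of oxygen genes were counted in the same way. Both repeat members counted above, so the counts overlap. The machinery list holds Hif1a, Hif3a, Egln1 and Egln3. The target list holds Hif3a, Egln1, Egln3, Vegfa, Pdk1, Slc2a1 and Bnip3. Of the HIF machinery (18 genes: alpha subunits, Arnt, hydroxylases, the VHL ligase and coactivators), 0 passed edgeR's test over all nuclei (1 at an unadjusted p under 0.05, 1 by DESeq2), and 1 of 146 pairs of gene and class did, again Hif3a. Of 44 HIF targets in the files other than P4ha1, 41 could be tested over all nuclei and 0 passed by edgeR. Of these, 4 had an unadjusted p under 0.05, as had 14.1% of all genes. DESeq2 called 4 of them there (Ddit4, Gpi, Hif3a and Mxi1) and 1.44% of all genes in the files. In the classes 3 of 284 pairs passed. Hif3a is 1 of the 3. The median log2 change of the targets lay between -0.17 and 0.10 in the classes, and that of all genes between -0.0030 and 0.014.

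The second call was Ddit4, an inhibitor of mTOR complex signalling that is induced by hypoxia and also by glucocorticoids and other stress. In oligodendrocyte-like nuclei it rose from 19.1, 27.0 and 19.9 CPM to 55.9, 110 and 72.1 CPM, a log2 change of 1.81 (SE 0.22, edgeR adjusted p = 0.00117). The third was Gpi, the glycolytic enzyme glucose-6-phosphate isomerase, which fell in Drd2-like spiny neurons from 96.9, 93.3 and 94.1 CPM to 67.2, 69.2 and 72.1 CPM, a log2 change of -0.42 (SE 0.08, edgeR adjusted p = 0.0272). Both had separate groups. Gpi moved in the direction of P4ha1 and Ddit4 against it. Ddit4 passed under all 13 alternatives run and Gpi under 8 of 13. Without saline replicate 1, 2 or 3 in turn, 1 of the 284 pairs passed each time.

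Of the other pyruvate and lactate enzymes, Pdk4 passed in 2 classes, in both under all 13 alternatives run. Pdk4 has the same action on pyruvate dehydrogenase as Pdk1 but is known for its induction by fasting and glucocorticoids rather than low oxygen. It rose in astrocyte-like nuclei from 25.4, 25.0 and 30.4 CPM to 63.4, 87.5 and 51.3 CPM, with a log2 change of 1.34 (SE 0.19, edgeR adjusted p = 0.00394). In oligodendrocyte-like nuclei it rose from 61.4, 45.8 and 30.8 CPM to 104, 135 and 97.7 CPM, with a log2 change of 1.31 (SE 0.20, edgeR adjusted p = 0.00603). Naloxone replicate 5 had the highest Pdk4, Ddit4 and Hif3a of the 6 libraries in these classes, and also the highest mitochondrial share (0.928% against 0.187% to 0.498% in astrocyte-like and 1.53% against 0.356% to 0.857% in oligodendrocyte-like nuclei); its part in these results was not tested. The enzymes that modify collagen beside P4ha1 (13 other genes) gave 0 calls by edgeR in 91 pairs of gene and class (12 at an unadjusted p under 0.05, as had 2.64% to 13.6% of all genes in the classes, and 0 by DESeq2). Their median log2 change was below 0 in 8 of 11 classes. It ran from -0.63 in endothelial-like nuclei, where only 2 were tested, to 0.07 in oligodendrocyte-like nuclei. Among the 16 genes of protein folding in the endoplasmic reticulum 1 of 142 pairs passed, Pdia4 in Drd2-like spiny neurons (26.6 ± 0.462 to 18.1 ± 0.865 CPM, edgeR adjusted p = 0.0472, passed under 6 of 13 alternatives). Of the 142 pairs, 34 had an unadjusted p under 0.05, and DESeq2 called 1. The median log2 change of these folding genes was below 0 in 10 of 11 classes. It ran from -0.48 in cholinergic-like to 0.15 in oligodendrocyte-like nuclei.

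**Figure D3:**
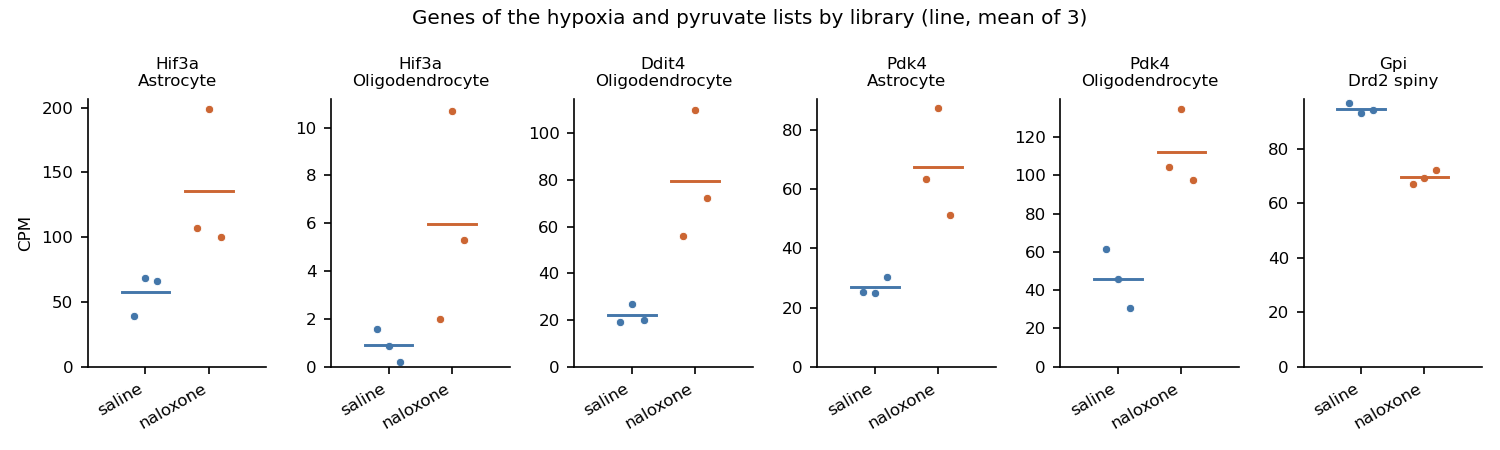
CPM in each library, with the mean of each group as a line, for the listed genes that passed the test in a class beside chaperones (Hif3a and Pdk4 in astrocyte-like, Ddit4 and Pdk4 in oligodendrocyte-like, Gpi in Drd2-like nuclei) and for Hif3a in oligodendrocyte-like nuclei, which was below the filter. Only Gpi is lower after naloxone; the others are higher in every naloxone library.

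Of the 5 genes whose values were most like those of P4ha1, 4 were on the list of chaperones. Likeness was the Pearson correlation of log2 CPM over 66 sums (11 classes by 6 libraries) after the mean of each class was subtracted, among 2949 other genes that passed the filter in every class. The treatment contrast that chose P4ha1 is part of this measure, and the sums of 1 library share its rats and depth, so it is a description. The 5 most alike were Dnaja1 (r = 0.874), Chordc1 (0.871), Stip1 (0.821), Trmt1l (0.816) and Hsph1 (0.767). Dnaja1 is an HSP40 cochaperone, Chordc1 and Stip1 bind HSP90, Hsph1 is the HSP110 exchange factor of HSP70, and Trmt1l is related to tRNA methyltransferases. Hspa8, the constitutive HSP70, ranked 11th (0.712) and Hsp90aa1, the inducible HSP90, ranked 15th (0.676). Hsp90ab1 ranked 45th (0.570), Hspa4 365th (0.318) and the heat shock factor Hsf2 754th (0.164). The HIF target Mxi1 ranked 67th (0.534). Hif1a, the only other member that passed the filter in all classes, ranked 1643rd (r = -0.084).

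Some heat shock chaperones fell after naloxone: 35 of 196 pairs of gene and class were called lower, in 9 of the 11 classes. Of 22 chaperone genes in the files, 1 fell over all nuclei by edgeR (Dnaja1, 93.1 ± 2.14 to 62.4 ± 3.54 CPM, adjusted p = 0.0463; DESeq2 called 12), where 0.00577% of all genes were called lower. Those called lower numbered 3 in Drd1-like, 5 in Drd2-like and 4 in Grm8/Chst9-like spiny neurons (0.102%, 0.199% and 0.0478% of all genes), 1 and 2 in somatostatin-like and other GABAergic-like interneurons (0.0140% and 0.0219%), and 6, 10, 3 and 1 in astrocyte-like, oligodendrocyte-like, precursor-like and microglia-like nuclei (0.191%, 0.193%, 0.0409% and 0.0643%). In cholinergic-like and endothelial-like nuclei 0 were called by edgeR (8 of 15 and 2 of 10 tested at an unadjusted p under 0.05, 0 by DESeq2). On simulated counts 200 genes were changed by a log2 of 1. The fit recovered 49.5% of them in the cholinergic-like class and 0% in the endothelial-like class, so a lack of calls in the latter says little. None was called higher by edgeR in any class, though in precursor-like nuclei 2 were separate upward and 6 downward, and 1 each was separate upward in Drd2-like and Grm8/Chst9-like spiny neurons. The 35 lower calls over the 11 classes became 16, 17 and 15 without saline replicate 1, 2 and 3, 23 without naloxone replicate 4 and 15 with nuclei gated by markers, and Dnaja1 over all nuclei passed under 5 of 11 alternatives. The median log2 change of the list ran from -0.73 in endothelial-like nuclei to -0.25 in precursor-like nuclei. Oligodendrocyte-like nuclei, with the largest P4ha1 difference, also had the largest differences of Hsph1 (163 ± 23.3 to 59.2 ± 10.0 CPM, a log2 change of -1.46 with an SE of 0.15, adjusted p = 0.000934) and Chordc1 (178 ± 29.1 to 68.4 ± 19.1 CPM, a log2 change of -1.36 with an SE of 0.19, adjusted p = 0.00454). Stip1 was also largest there (log2 change -1.16, SE 0.16). Dnaja1, the gene most like P4ha1, was instead largest in microglia-like nuclei (-1.04, SE 0.22), with -0.95 (SE 0.11) in oligodendrocyte-like nuclei. In Drd2-like spiny neurons Chordc1 went from 79.6 ± 0.781 to 47.7 ± 2.77 CPM (a log2 change of -0.72 with an SE of 0.08, edgeR adjusted p = 0.00105). These comparisons use the same libraries as those of P4ha1, so they are no separate evidence about it. The chaperone list was chosen with earlier results of these data known, so its counts and p-values are a description.

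**Figure D4:**
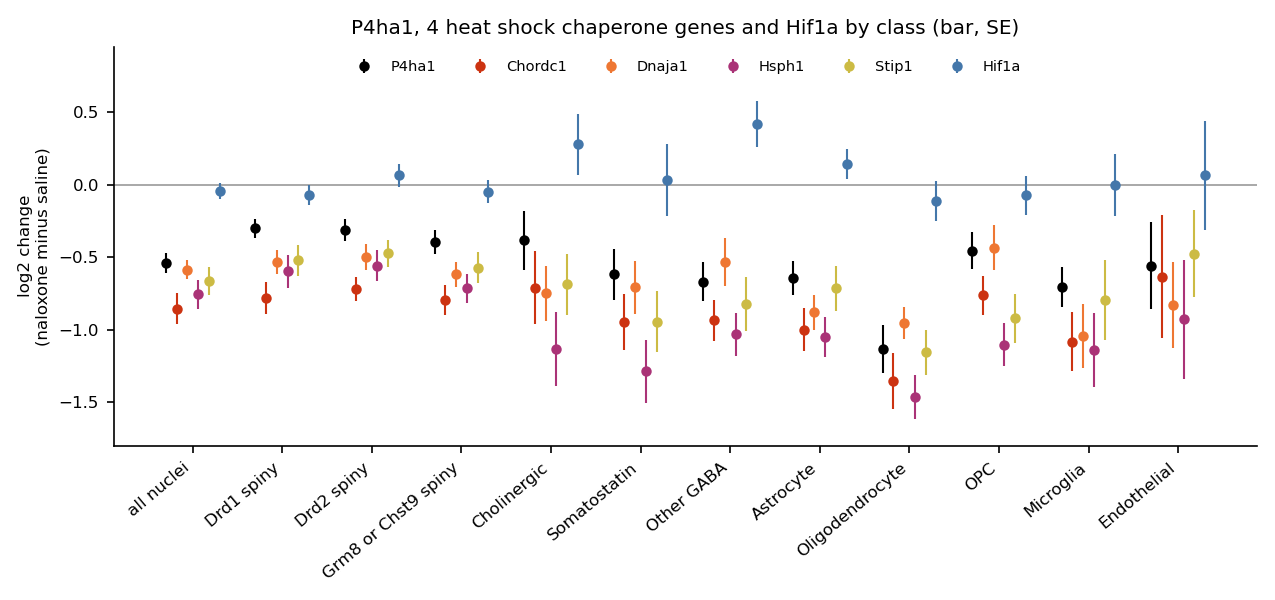
Log2 change from saline to naloxone with its SE for P4ha1, 4 heat shock chaperone genes and Hif1a, over all nuclei and in the 11 classes. P4ha1 lies below 0 with the chaperone genes in each class, between -1.14 and -0.30, and Hif1a between -0.11 and 0.42.

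The promoters of Chordc1 and Dnaja1 are shown for the difference in letters from that of P4ha1 above. They are at chr8:23650571-23650870 and chr5:60638154-60638453 (both plus strand, RefSeq, build GRCr8). Capitals mark the heat shock element core, searched as GAANNTTC or TTCNNGAA on both strands with overlapping matches counted, and in Chordc1 also a hypoxia response core, the first run of capitals.
Chordc1: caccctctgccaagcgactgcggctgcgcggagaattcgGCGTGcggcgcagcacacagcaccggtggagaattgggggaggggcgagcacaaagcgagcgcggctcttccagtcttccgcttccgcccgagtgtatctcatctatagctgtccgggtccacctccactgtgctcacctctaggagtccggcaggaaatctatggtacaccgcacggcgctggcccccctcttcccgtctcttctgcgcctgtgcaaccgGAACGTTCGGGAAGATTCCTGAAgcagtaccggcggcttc
Dnaja1: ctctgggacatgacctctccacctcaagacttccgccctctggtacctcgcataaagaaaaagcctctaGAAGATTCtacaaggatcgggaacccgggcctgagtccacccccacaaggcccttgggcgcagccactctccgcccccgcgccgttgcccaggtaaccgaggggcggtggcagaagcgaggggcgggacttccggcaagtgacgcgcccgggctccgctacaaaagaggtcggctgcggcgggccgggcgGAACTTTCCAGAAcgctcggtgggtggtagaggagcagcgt
Chordc1 held 4 heat shock cores, beginning at bases 261, 266, 271 and 276, and Dnaja1 held 3, at bases 70, 260 and 265. Windows were found for 18 chaperone genes; 13 of the 18 held the heat shock core and 12 the hypoxia core. The heat shock core was in 15.9% of all 33469 windows. In the 12 windows of the hypoxia genes, P4ha1 included, these letters did not occur, which says nothing of the factor elsewhere at these genes.

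The members differed in the class where they were highest. Levels are CPM over the 6 libraries of both groups, and a gene is compared only with itself across classes. P4ha1 was highest in microglia-like nuclei (599 ± 166 CPM, n = 6) and next in astrocyte-like nuclei (222 ± 60.1), a 2.70-fold gap with no overlap of the libraries. From astrocyte-like nuclei downward each class overlapped the next, through endothelial-like (203 ± 71.7) and oligodendrocyte-like nuclei (202 ± 91.3) to cholinergic-like interneurons (78.3 ± 18.2). The order below microglia-like nuclei depends on the group: after saline oligodendrocyte-like nuclei (278 CPM) came before astrocyte-like (274) and endothelial-like nuclei (245) by their means, and after naloxone they were at 126 CPM, below astrocyte-like (171) and endothelial-like nuclei (161). Hif1a was spread most evenly, from 120 ± 17.8 CPM in microglia-like to 58.6 ± 10.2 in endothelial-like nuclei. Its microglial level did not differ from the astrocytic 103 ± 4.89 beyond the spread (higher in 4 of 6 libraries, exact sign-flip permutation p = 0.125).

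Hif3a was an astrocyte gene by level, with 96.5 ± 55.8 CPM in astrocyte-like nuclei and 9.36 ± 5.81 in microglia-like nuclei, the next class. Vegfa was highest in the same nuclei (227 ± 21.5 CPM), above precursor-like nuclei (105 ± 18.8), which were in turn above other GABAergic-like interneurons (40.8 ± 4.68) with no overlap. Slc2a1 was highest in endothelial-like nuclei (554 ± 126 CPM), the barrier cells it serves, 11.4-fold above astrocyte-like nuclei (48.4 ± 8.89). Egln1 and Egln3 were both highest in oligodendrocyte-like nuclei: Egln1 at 91.3 ± 14.3 CPM above endothelial-like nuclei (43.8 ± 10.4), and Egln3 at 6.99 ± 0.939 CPM above astrocyte-like nuclei (3.63 ± 1.43). Pdk1 was highest in microglia-like nuclei (53.8 CPM, libraries from 39.6 to 80.7), then in astrocyte-like nuclei (26.8 ± 3.70), and lowest in oligodendrocyte-like nuclei (2.58 ± 1.32). Bnip3 was highest in oligodendrocyte-like nuclei (31.2 ± 4.80 CPM), with somatostatin-like interneurons next (25.6 ± 8.51), and every class overlapped its neighbour.

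The highest class stood above the next in all 6 libraries for 7 members, and for each of these the exact two-sided sign-flip permutation test gave p = 0.03125, the smallest that 6 libraries allow (0.0402 adjusted over the 9 members). Bnip3 was higher in 5 of 6 libraries (exact sign-flip p = 0.0625, adjusted 0.0703). The highest class was picked from the same values. With nuclei gated one by one on markers in place of clusters, 5 members kept the highest class in 6 of 6 libraries, at an exact sign-flip p of 0.03125 that became 0.0563 after adjustment. Under that gate Hif1a was level between astrocyte-like and microglia-like nuclei (95.9 and 95.7 CPM). Egln1 in oligodendrocyte-like nuclei (55.2 CPM) was above endothelial-like nuclei (49.0 CPM) in 3 of 6 libraries, and Egln3 (4.07 CPM) above astrocyte-like nuclei (3.65 CPM) in 4 of 6. P4ha1 in microglia-like nuclei was then 290 CPM, with endothelial-like nuclei next at 224 CPM.

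**Figure D5:**
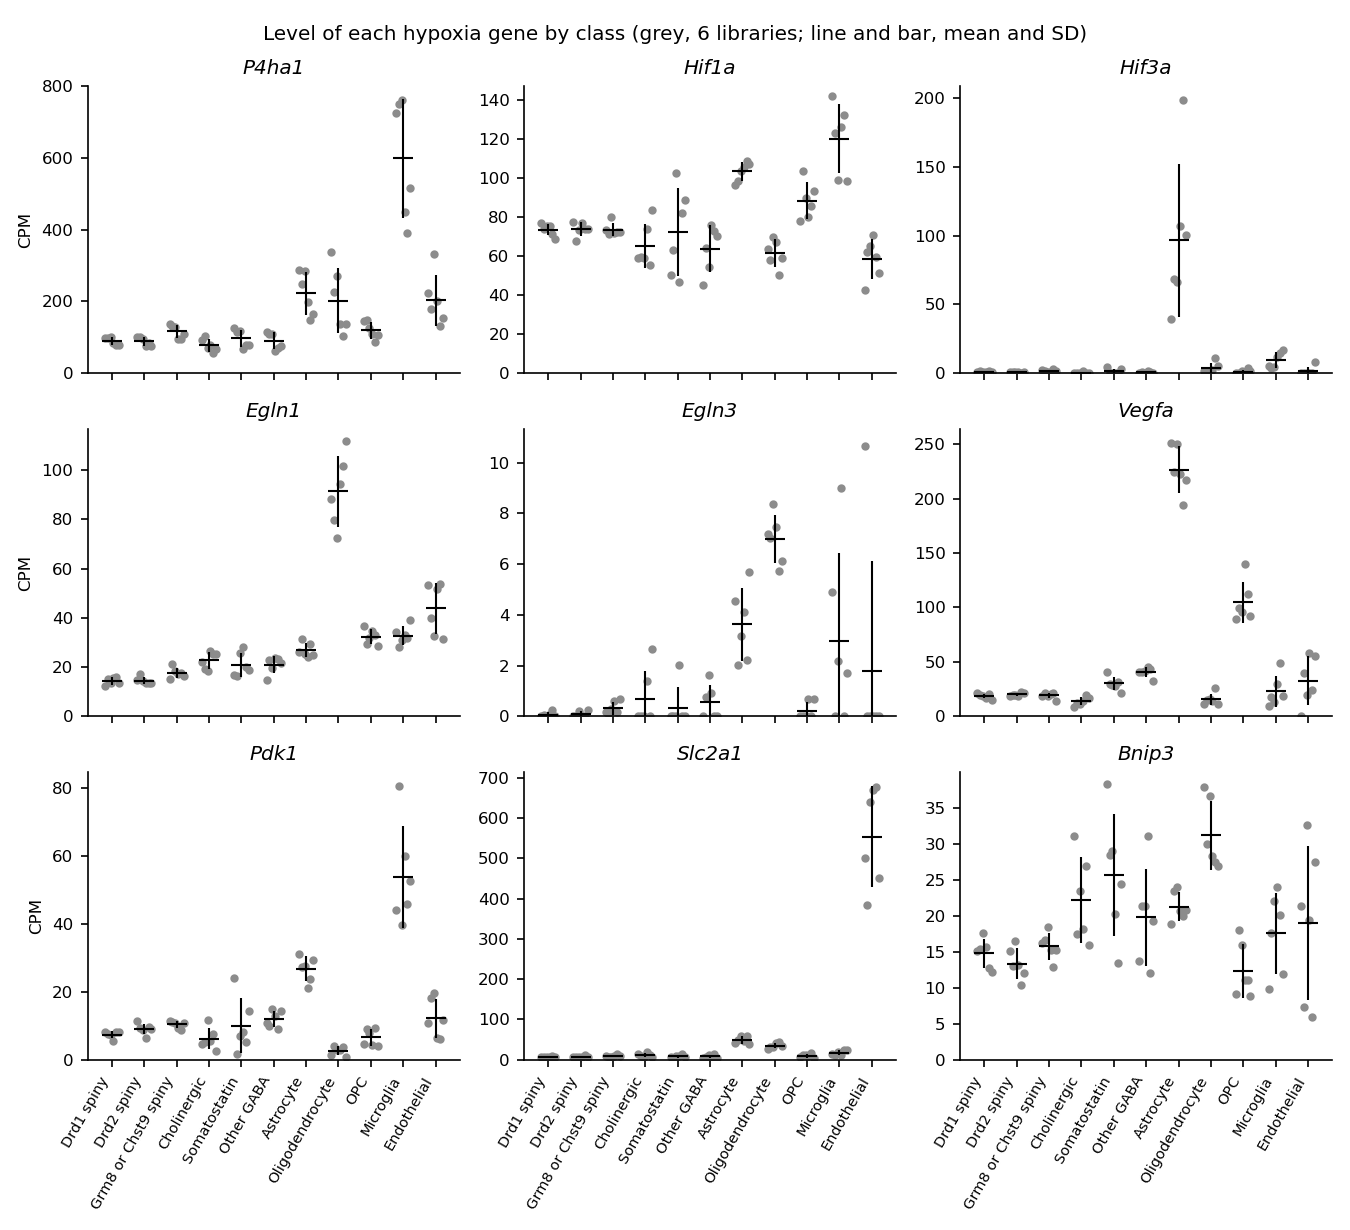
CPM of the 9 measured members in the 11 classes, 1 grey point per library with the mean and SD of the 6 libraries, each panel on its own linear axis. P4ha1 and Pdk1 peak in microglia, Hif3a and Vegfa in astrocytes, Egln1 and Egln3 in oligodendrocytes and Slc2a1 in endothelial cells, while Hif1a and Bnip3 are spread over the classes.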

How the data were processed

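Single-nucleus RNA libraries (10x droplet, 3′ tags) were analysed from the UMI count matrices the authors deposited, made with Cell Ranger 9.0.1 per the file headers, on build mRatBN7.2 per the submitters' processing notes, which also name R 4.4.0 and Seurat 5.2.1; the annotation is not given in the sources used here. Nuclei with at least 500 genes and at most 5% mitochondrial counts were kept, and 2649 doublets (4.3%) were called with scanpy 1.11.5 and removed. Free RNA was not removed.

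Leiden clusters (resolution 1.0, without the listed, mitochondrial and sex genes) were named from at least 3 markers. Clusters with markers of another class, or with UMIs of both sexes in over 20% of nuclei, were set aside as mixed. The thresholds for naming were set after the clusters were seen. Library by library, the counts of all nuclei were added up, as were those of every class that had 20 or more nuclei in all libraries, and tested with edgeR 4.0.16 (R 4.3.3; quasi-likelihood F-test, TMM factors, filterByExpr, Benjamini-Hochberg over all genes, threshold 0.05), on 3 saline against 3 naloxone libraries. The script was tested on simulated data. Of the genes called there, 11.8% in the astrocyte-like and 9.49% in the oligodendrocyte-like class were unchanged genes. That is more than the adjusted p threshold of 0.05 allows, and the Hif3a, Ddit4 and Pdk4 calls are in these classes. In the other fits this share ran from 0% (endothelial-like, with no calls) to 9.38% (Drd1-like). Levels were compared by exact two-sided sign-flip permutation over 6 libraries. Alternatives were DESeq2 1.42.0, edgeR with RLE factors or without its filter, fits that drop 1 library in turn, a minimum of 1000 genes in a nucleus, doublets left in, resolution 0.5, a marker gate per nucleus, and sex as a covariate. The fit with sex as a covariate took the male and female parts of each library as separate sums, with no library block. Those parts are not independent repeats, so its p-values count each library more than once.

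The members and lists were chosen with earlier results of these data known. Named beside the members were listed genes past the threshold with a mean of at least 10 CPM, at most 3 per direction and list by size of change, and the 5 genes most like P4ha1. The ranks of Hspa8, Hsp90aa1, Hsp90ab1, Hspa4, Hsf2 and Mxi1 in that likeness were added after their values were seen. Promoter windows are from RefSeq on GRCr8.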

Additional observations from a re-analysis of the deposited data

How the results depend on the processing

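Calls moved with the test, the filter and the libraries used. Of the 8 members other than P4ha1, 0 passed over all nuclei with edgeR and 1 with DESeq2; over the whole table edgeR called 7 genes there and DESeq2 368. In the classes 1 pair of member and class passed, against 0 with DESeq2, 2 with no filter on low counts, 0 with the marker gate and 0 to 2 with 1 library left out. The HIF machinery gave 1 call, against 0 with DESeq2, 2 with no filter, 0 with the gate and 0 to 2 with 1 library left out. The HIF targets gave 3, against 5 with DESeq2, 9 with no filter, 1 with the gate and 1 to 4 with 1 library left out. The lower calls among heat shock chaperones numbered 35, against 59 with no filter, 15 with the gate and 15 to 40 with 1 library left out. The cause of these moves was not tested. Over all nuclei the sign of Egln3 turned without saline replicate 3 (log2 change 0.01) and without naloxone replicate 5 (0.15), with a range of -0.27 to 0.15, and that of Vegfa without naloxone replicate 6 (0.022), with a range of -0.056 to 0.022; none of these passed a test. P4ha1 over all nuclei ranged from -0.59 to -0.48 over 11 alternatives. In the classes it stayed below 0 under every alternative run. The marker gate moved it from -0.30 to -0.14 in Drd1-like spiny neurons and from -0.71 to -0.46 in microglia-like nuclei. Other classes moved as well. Over 13 alternatives it ranged from -1.28 to -0.85 in oligodendrocyte-like nuclei and from -0.76 to -0.48 in other GABAergic-like interneurons. The class by treatment and sex by treatment terms gave 0 calls among the other members under the alternatives run for them. No paired analysis was possible because the saline and naloxone libraries share no replicate number. Depth limited the rarer classes, where most members had few UMIs per library.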
